A study of Mus musculus with 2 samples.

Results

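The mir-148/152 family of mouse consists of 3 microRNA genes, Mir148a, Mir148b and Mir152, which were chosen by symbol and not by their values from the 2202 microRNA genes of the deposited tables. They were measured by microRNA sequencing of total RNA from the left cerebral cortex of female mice aged 10 days. All animals were B6CASTF1/J, a first-generation cross between C57BL/6J, a laboratory strain, and CAST/EiJ, which descends from wild mice. The labels name no other genotype and no treatment. They give a single group of 2 biological replicates, here animal 1 and animal 2. The females carry different numbers in the labels but the same donor entry. No condition was compared, so the levels, their order and the spread between these libraries are described.

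A microRNA is processed from a hairpin precursor to a short single strand. Loaded into an Argonaute protein, it pairs with messenger RNAs mainly through the seed, bases 2 to 8 from the 5′ end, and represses them. Members of this family are best known from other tissues: miR-148a is abundant in liver, where it limits the LDL receptor and the cholesterol exporter ABCA1, and miR-148a and miR-152 repress the DNA methyltransferase DNMT1. In dendritic cells the family represses the kinase CaMKIIα, which is also a major protein of cortical synapses. These roles are background, since target RNAs were not measured here.

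The mature strands of the 3′ arm are printed first because their common seed defines the family. Letters come from RefSeq on build GRCm38.p6, run from 5′ to 3′, and have the seed in capitals. All 3 genes matched the RefSeq table by symbol.
miR-148a-3p: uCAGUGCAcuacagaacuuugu
miR-148b-3p: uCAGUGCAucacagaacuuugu
miR-152-3p: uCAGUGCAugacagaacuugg
Counted from 1 at the 5′ end, miR-148b-3p differs from miR-148a-3p by C9U and U10C. Over 21 compared bases miR-152-3p differs from miR-148a-3p by C9U, U10G and U20G, and from miR-148b-3p by C10G and U20G. The first 8 bases are identical in all 3 strands, so every difference lies outside the seed. Of 1679 mature sequences searched in the RefSeq table, on their own strand, only these 3 have CAGUGCA at bases 2 to 8.

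The strands of the 5′ arm are shown in the same way because they do not all share a seed.
miR-148a-5p: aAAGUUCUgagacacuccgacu
miR-148b-5p: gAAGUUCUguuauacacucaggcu
miR-152-5p: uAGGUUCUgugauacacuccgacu
AAGUUCU stands at bases 2 to 8 of miR-148a-5p and miR-148b-5p and of no other mature sequence in the table, and AGGUUCU there only in miR-152-5p. The substitution A3G separates the seed of miR-152-5p from both others. Without gaps, miR-148b-5p and miR-152-5p differ at 5 of 24 bases, and miR-148a-5p differs from them at 9 and 10 of 22. These counts ignore the lengths, 22 bases for miR-148a-5p and 24 for the others. The last 11 bases of miR-148a-5p and miR-152-5p are the same, but this comparison sets them out of step.

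The unit of measurement was the hairpin gene. Reads of both arms were summed in the deposited counts, so a read cannot be assigned to the 3′ or the 5′ strand. The hairpins below show both mature strands in capitals, the 5′ arm first, to make clear which sequences a count can hold.
Mir148a: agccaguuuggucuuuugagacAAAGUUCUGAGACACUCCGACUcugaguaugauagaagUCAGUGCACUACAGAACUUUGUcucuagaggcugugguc
Mir148b: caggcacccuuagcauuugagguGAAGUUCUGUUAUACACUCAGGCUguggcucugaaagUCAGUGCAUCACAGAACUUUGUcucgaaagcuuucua
Mir152: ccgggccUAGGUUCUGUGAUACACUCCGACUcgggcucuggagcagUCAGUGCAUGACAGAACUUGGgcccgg
The Mir152 hairpin is the shortest of the family at 73 bases, against 99 for Mir148a and 97 for Mir148b. It is also the richest in G and C, at 61.6% against 45.5% and 45.4%. The longest exact run that a mature strand of the family shares with another of the 1005 hairpins in the table, on either strand, is 12 bases, between the 3′ strands of Mir148a and Mir148b. With hairpins outside the family the longest run is 11 bases. The deposited tables keep reads with several genomic positions in a single separate total. How many of those came from this family cannot be seen there.

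Each member lies on a chromosome of its own. Mir148a (ENSMUSG00000065505.1) is at chr6:51269812-51269910 on the minus strand (mm10, GENCODE M21) and overlaps no other annotated gene. The nearest gene is Gm32479, a long intergenic non-coding RNA on the same strand, 13622 bases away. Mir148b (ENSMUSG00000065560.1), at chr15:103285125-103285221 on the plus strand, lies in the first intron of Copz1 in all 4 of its annotated transcripts. Mir152 (ENSMUSG00000065515.1), at chr11:96850393-96850465 on the plus strand, lies in the first intron of Copz2 in 3 of 5 annotated transcripts and lies upstream of the other two. Copz1 and Copz2 encode the paralogous zeta subunits of the coatomer, the coat of vesicles that travel from the Golgi to the endoplasmic reticulum. Both hairpins have the orientation of their host, but the introns differ in size. Mir148b starts 12183 bases after exon 1 and ends 3879 before exon 2, while Mir152 lies 396 and 207 bases from those exons. No other listed microRNA gene lies within 10 kb of a member. The map of both host genes shows the shared place in the first intron.

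**Figure D1:**
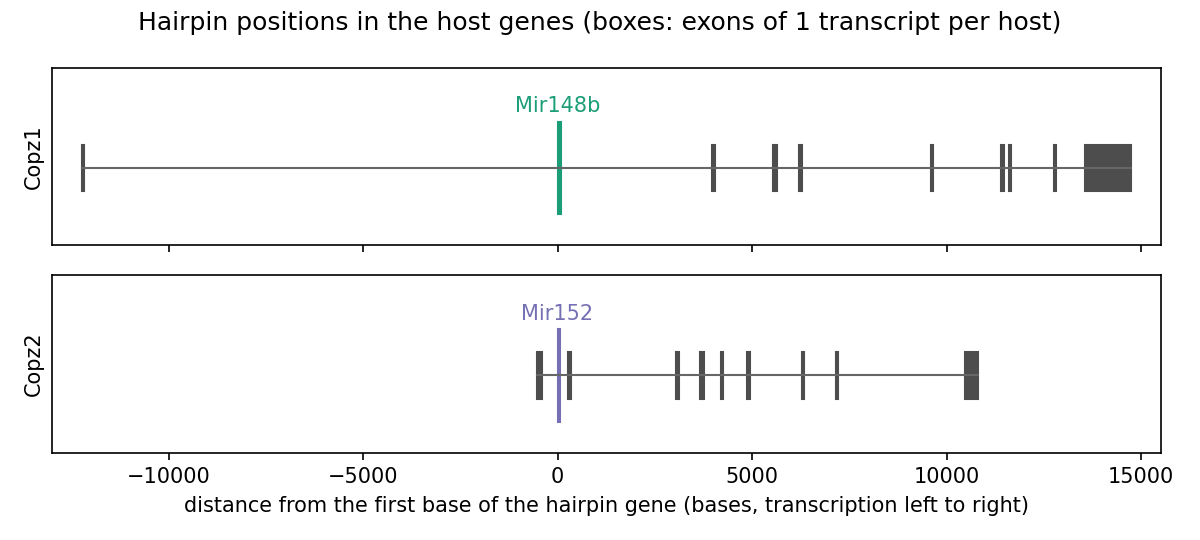
Exons (grey boxes, 1 transcript per host gene) of Copz1 and Copz2 along the distance in bases from the first base of the hairpin, with transcription from left to right. Mir148b and Mir152 (coloured bars) both lie between exons 1 and 2, in introns of different length.

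Depth was 3806078 own-strand microRNA reads for animal 1, 33.5% of its reads, and 2602935 for animal 2, 30.4%. Unmapped reads were 17.9% and 23.5%, and reads with several positions 42.7% and 40.4%. Among markers of neurons, Mir137, Mir132 and both Mir128 genes were abundant, at means from 5851 to 16214 CPM (reads per 1000000 counted). The 3 Mir124a copies stood at 3.05 CPM or less. As Mir124a and Mir128 have genomic copies, the levels of those genes are uncertain.

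The family held a small share of the counted reads in both animals. It had 1125 reads in animal 1 and 323 in animal 2. This is 0.0296% of counted reads in animal 1 (exact Clopper-Pearson 95% interval 0.0279 to 0.0313) and 0.0124% in animal 2 (0.0111 to 0.0138). The mean share was 0.0210% ± 0.0121 (SD, n = 2); with n = 2, every SD here rests on a single difference. Intervals cover counting error only and not the spread between animals. PCR copies of a molecule cannot be told apart in these counts, so reads may not be independent. The intervals may then be too narrow even for counting error. In bulk tissue, fewer cells that make a microRNA and less of it per cell cannot be told apart.

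Mir148b, the Copz1 member, had the most reads of the family in both libraries. It had 543 reads in animal 1 and 152 in animal 2. These are 142.7 CPM (exact Poisson 95% interval 130.9 to 155) and 58.4 CPM (49.5 to 68.5). The mean was 101 CPM ± 59.6 (SD, n = 2). It ranked at place 197 of 2202 genes in animal 1 and at place 222 in animal 2. Of those 2202 genes, 770 had at least 1 read summed over both libraries.

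Mir148a, the intergenic member and the one best known from liver, came next. It had 412 reads in animal 1 and 137 in animal 2, or 108 CPM (98.0 to 119) and 52.6 CPM (44.2 to 62.2). Its mean was 80.4 CPM ± 39.3 (SD, n = 2), and its ranks were 208 and 229. Its intervals overlapped those of Mir148b in animal 2 but not in animal 1.

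Mir152, the Copz2 member, was the lowest. It had 170 reads in animal 1 and 34 in animal 2. That is 44.7 CPM (38.2 to 51.9) and 13.1 CPM (9.05 to 18.3), with a mean of 28.9 CPM ± 22.3 (SD, n = 2). It ranked at places 246 and 296. Over the 531 genes with at least 10 reads summed over both libraries, the median of the mean levels was 28.9 CPM. Mir152 stood at this median, and Mir148a and Mir148b stood above it. All 3 members reached 10 CPM in both libraries, as did 307 genes in all. Mir148a and Mir148b reached 50 CPM in both, among 228 genes, and no member reached 100 CPM in both, a level that 198 genes passed.

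**Figure D2:**
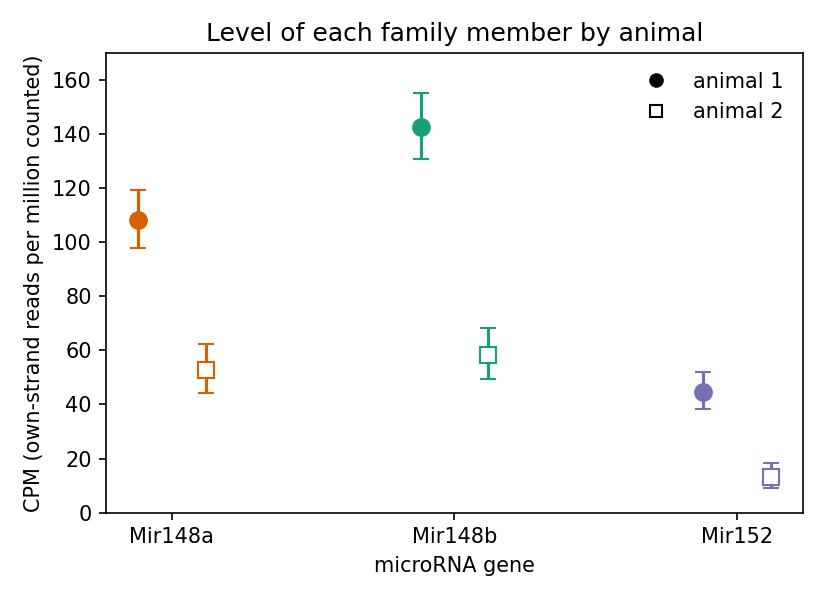
CPM of each member (vertical axis, linear) in animal 1 (filled circles) and animal 2 (open squares), with exact Poisson 95% intervals as bars. Each member is higher in animal 1, and Mir152 is the lowest member in each animal.

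**Figure D3:**
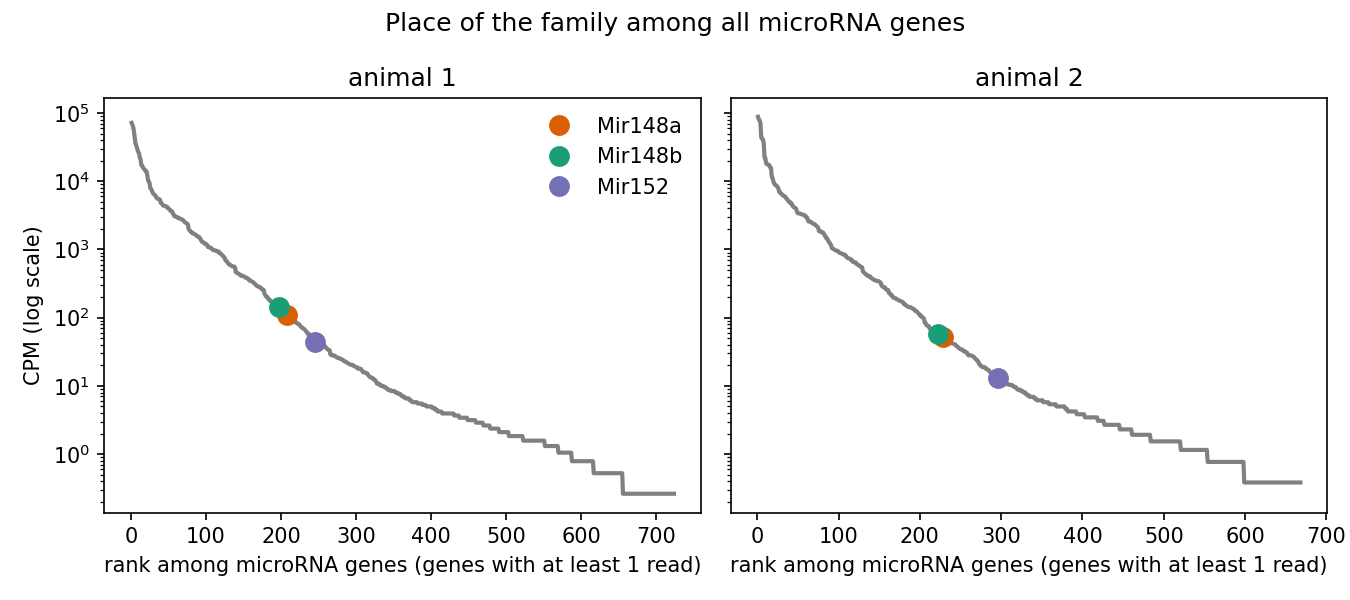
CPM of every microRNA gene with at least 1 read (log axis) against its rank in animal 1 (left) and animal 2 (right), with the 3 members as coloured points. The members sit between places 197 and 246 in animal 1 and between 222 and 296 in animal 2.

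The order within the family was then read from ratios of reads inside a library, which need no scaling between libraries. The reads were not divided by length for this, as a microRNA read covers its mature strand and not the hairpin. Mir148b had 1.32 times the reads of Mir148a in animal 1 (exact 95% interval 1.16 to 1.502) and 1.11 times in animal 2 (0.875 to 1.41). The second interval includes equality, so Mir148a and Mir148b could not be ordered at the depth of animal 2. Mir152 had 0.413 times the reads of Mir148a in animal 1 (0.343 to 0.495) and 0.248 times in animal 2 (0.165 to 0.364). Against Mir148b the ratios were 0.313 (0.262 to 0.373) and 0.224 (0.149 to 0.326). Mir152 thus had fewer reads than both others in each animal by more than counting error. How evenly the method recovers different sequences was not measured here. The order of reads therefore need not be the order of molecules.

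Divided by the length of the annotated gene, Mir152 stayed the lowest in both animals. In the order Mir148b, Mir148a and Mir152, animal 1 then had 5.60, 4.16 and 2.33 reads per base, and animal 2 had 1.57, 1.38 and 0.466.

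As a share of the family's reads, Mir148b changed least between the animals. It held 48.3% in animal 1 (exact 95% interval 45.3 to 51.2) and 47.1% in animal 2 (41.5 to 52.7). Mir148a held 36.6% (33.8 to 39.5) and 42.4% (37.0 to 48.0), and Mir152 held 15.1% (13.1 to 17.3) and 10.5% (7.40 to 14.4). The ratio of Mir152 to Mir148a was 1.66 times as high in animal 1 as in animal 2 (exact conditional 95% interval 1.08 to 2.60). For Mir148b to Mir148a this quotient was 1.19 (0.904 to 1.56), and for Mir152 to Mir148b 1.40 (0.918 to 2.18). These 3 quotients were computed after the counts were seen, their intervals are not adjusted for their number, and they compare 2 libraries.

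**Figure D4:**
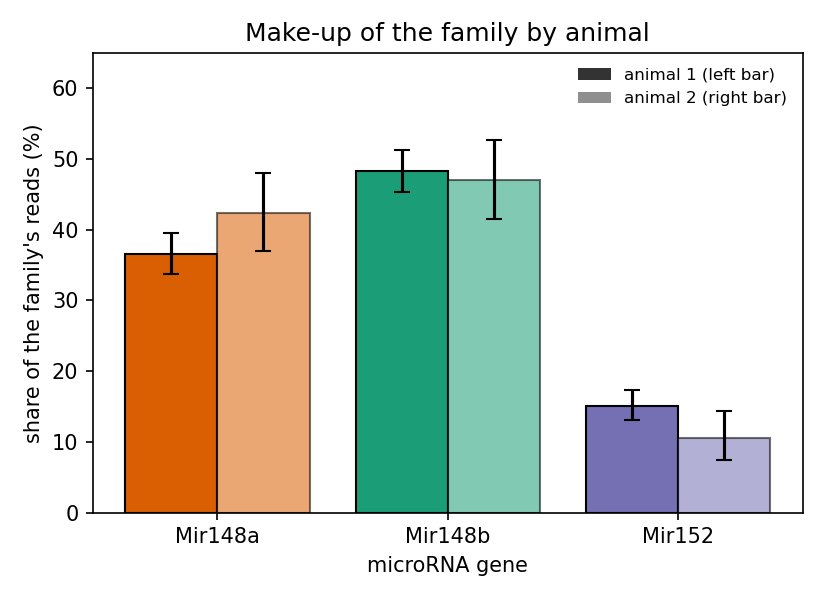
Share of the family's reads (vertical axis, %) held by each member in animal 1 (left, darker bars) and animal 2 (right, paler bars), with exact Clopper-Pearson 95% intervals. Mir148b held 48.3% and 47.1%. The intervals of the animals overlap for every member, which is not a test of their difference.

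All 3 members were higher in animal 1 than in animal 2 by more than counting noise. After TMM scaling, Mir148a was 1.78-fold higher in animal 1, a log2 ratio of 0.83 (95% interval 0.55 to 1.13; exact conditional binomial test, Benjamini-Hochberg adjusted over 531 genes, p = 3.2e-09). Mir148b was 2.12-fold higher, with a log2 ratio of 1.08 (0.82 to 1.35; exact binomial test, adjusted p = 1.3e-17). Mir152 was 2.94-fold higher, with a log2 ratio of 1.55 (1.03 to 2.15; exact binomial test, adjusted p = 5.4e-10). The interval of Mir152 overlaps those of both other members, but an overlap is not a test of their difference. The direct quotients above were 1.66 (1.08 to 2.60) for Mir152 to Mir148a and 1.40 (0.918 to 2.18) for Mir152 to Mir148b, not adjusted for their number.

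Such differences were common between these libraries. By the same test 51.6% of the 531 tested genes differed, while 26.9% were higher in animal 1 and 24.7% in animal 2. Of the calls 52.2% were thus higher in animal 1, against 67.5% with library totals and 46.7% with DESeq2 size factors in place of TMM. Among the 307 genes with at least 100 reads summed over both libraries, to which all 3 members belong, 37.5% were higher in animal 1. At least 2-fold higher in animal 1 were 13.0% of all tested genes, and Mir148b and Mir152 were among them. The members' median log2 ratio was 1.08, against 0.04 over all tested genes, whose median absolute log2 ratio was 0.51. Of the 531 genes, 41 had a higher log2 ratio than Mir152, 82 a higher one than Mir148b and 113 a higher one than Mir148a. The test compares 2 libraries of one group and says nothing of a condition. The coefficients of variation of the CPM values were 48.9% for Mir148a, 59.3% for Mir148b and 77.4% for Mir152. The common biological coefficient of variation over the tested genes was 37.99%, estimated with edgeR. These measures are not alike and cannot be set against each other directly. The members' values rest on CPM over library totals and include counting noise. The common value was fitted after TMM scaling, with counting noise modelled apart.

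**Figure D5:**
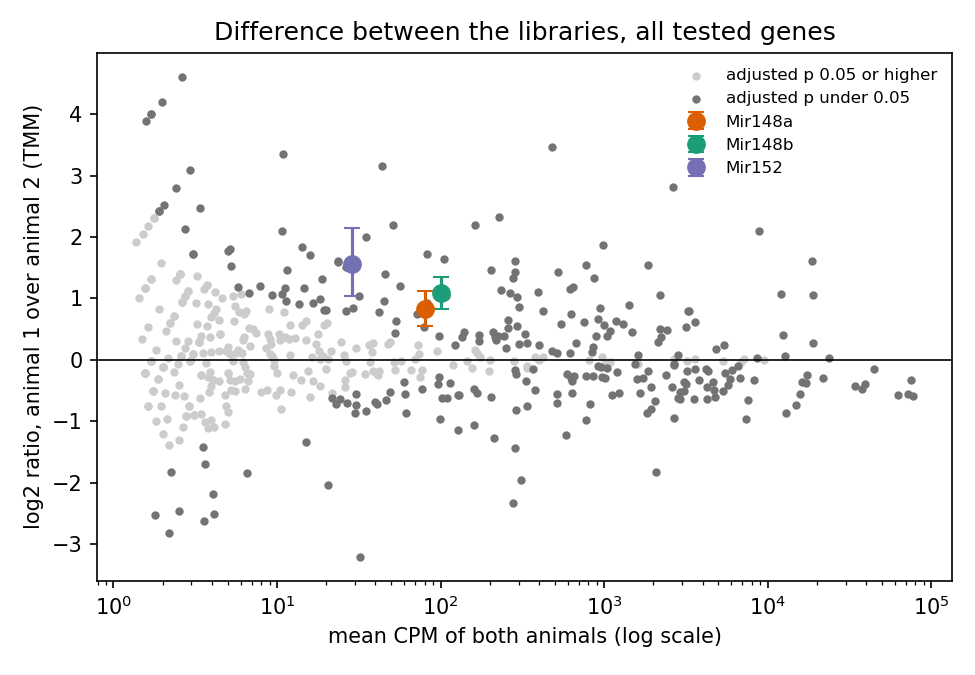
Log2 ratio of animal 1 over animal 2 after TMM against mean CPM (log axis) for 531 tested genes, with darker points for adjusted p under 0.05 and 95% intervals on the members. The 3 members lie above 0, at 0.83, 1.08 and 1.55, within the cloud of other genes.

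Marker microRNA genes of other cell types were compared between the libraries in the same way. Over all 531 tested genes, 26.9% were higher in animal 1 and 24.7% in animal 2. The endothelial list (Mir126a and Mir126b) summed to 28913 CPM in animal 1 and 8265 CPM in animal 2, with Mir126b at 0 and Mir126a higher in animal 1 by the exact test. Erythroid genes summed to 78.0 and 46.5 CPM, and 2 of 3 were higher in animal 1. The other way went the mural list (3145 and 4524 CPM), with 2 of 2 genes higher in animal 2. In the blood and microglial list (1593 and 1941 CPM) 3 of 5 genes were higher in animal 2. The choroid plexus and ciliated list was mixed. It summed to 1106 and 1496 CPM, with 3 of 4 tested genes higher in animal 2, namely Mir34b, Mir34c and Mir449a. Mir449b stood at 0. Mir204, the most abundant gene of that list, stood at 865 and 751 CPM, a log2 ratio of 7e-05, and did not pass the test. Oligodendrocyte genes summed to 1187 and 1640 CPM, with 2 of 3 higher in animal 2 and Mir219a-1 in animal 1. Mir219a has copies, so the levels of those genes are uncertain. Neuronal genes summed to 36730 and 38071 CPM, and of the 5 that were tested animal 2 had the higher level in 3 and animal 1 in 1. Mir122, of liver, stood at 42.6 and 41.9 CPM and did not pass the test. With library totals the blood and microglial list had 2 genes higher in animal 2, and 1 choroid plexus gene was higher in animal 1. With DESeq2 size factors no neuronal gene was higher in animal 1. The part of these cell types, and of depth, in the family's difference was not tested.

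Relatives with a shifted seed were listed as Mir130a, Mir130b, Mir301, Mir301b and Mir721. Of these, Mir130a, Mir130b, Mir301 and Mir721 each have a RefSeq strand with the same 7 bases, CAGUGCA, at bases 1 to 7. Mir130c also has such a strand and is not on the list. No strand of Mir301b matched. The RefSeq table holds 1005 hairpins against 2202 listed genes, so strands missing from it could not be found. Mir301 is shown against the strands above, with those 7 bases in capitals.
miR-301a-3p: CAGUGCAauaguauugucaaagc
This group did not move together: of 5 listed genes 4 could be tested, 1 was higher in animal 1 and 1 in animal 2. The shares over all tested genes were 26.9% and 24.7%. Mir130a, the most abundant, stood at 4257 CPM in animal 1 and 4104 in animal 2, a log2 ratio of -0.15 (95% interval -0.19 to -0.11), and was the one higher in animal 2. That direction depended on scaling: with library totals 2 of the 4 genes were higher in animal 1 and 0 in animal 2, and the group's median log2 ratio turned from -0.14 to 0.06. Mir301 stood at 884 and 69.5 CPM, a log2 ratio of 3.46 (3.25 to 3.69). The group's summed level was 5493 and 4510 CPM against 296 and 124 for the mir-148/152 family.

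Other groups share a textbook role with the family. The mir-29 genes, which target the de novo DNA methyltransferases, were higher in animal 1 in 3 of 4 cases, at a median log2 ratio of 0.43. Mir29a stood at 1337 and 840 CPM, and Mir29b-1 did not pass (log2 ratio 0.08, interval -0.39 to 0.56). Mir29b has copies, Mir29b-1 and Mir29b-2, so the levels of those genes are uncertain and they are not independent cases. Of 8 microRNA genes tied to cholesterol and lipid control, none was higher in animal 1 and 3 were higher in animal 2, at a median log2 ratio of -0.34; with library totals 1 was higher in animal 1 and 2 in animal 2. Mir128-1, near a locus for blood cholesterol, led them at 15292 and 17136 CPM. Its level is uncertain, as Mir128 has copies. Some of these genes are also on other lists, Mir130b and Mir301b as shifted-seed relatives and Mir128-1, Mir122 and Mir223 as markers. Mir33, in an intron of the sterol regulator Srebf2, was higher in animal 2, at 39.1 and 53.4 CPM. Among all tested genes 26.9% were higher in animal 1 and 24.7% in animal 2. These lists hold few genes, and no test of the lists was made.

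Families with members in introns of paralogous hosts, as Mir148b and Mir152 are, include mir-26 in the Ctdsp genes and mir-103/107 in the Pank genes. Of those 6 genes none was higher in animal 1 and 4 were higher in animal 2, or 3 with library totals. With TMM, 26.9% of all tested genes were higher in animal 1 and 24.7% in animal 2. Mir26b stood at 4247 and 5195 CPM and Mir107 at 1994 and 3337. Mir26a and Mir103 have copies, so the levels of those genes are uncertain.

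The genes whose levels in the 2 libraries came nearest to each member were found by distance on the log2(CPM + 0.5) scale. Nearest to Mir148a were Mir6944, at 107 and 53.4 CPM (distance 0.025), and Mir6236, at 114 and 51.9 CPM (0.074). Nearest to Mir148b were Mir539, at 148.7 and 58.4 CPM (0.060), and Mir377, at 153 and 64.5 CPM (0.173), both of the imprinted Dlk1-Dio3 cluster. Nearest to Mir152 were Mir3068, at 40.7 and 12.3 CPM (0.156), and Mir3547, at 57.5 and 12.3 CPM (0.371). With 2 libraries this likeness rests on 2 values per gene.

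Strand did not bear on the members' counts. None of them had a read on the opposite strand in either library, and the unstranded counts equalled the own-strand counts. A count of 0 allows up to 3 reads, which is 0.788 CPM at the depth of animal 1 and 1.15 CPM at that of animal 2.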

How the data were processed

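The deposited tables hold whole-number read counts per microRNA gene, 1 table per library, on build mm10 with GENCODE M21, per the file notes. No aligner or counter is named in the sources used here. Of the strand columns, the own-strand one was used. All 2202 gene IDs were matched to M21 symbols. The 4 rows of uncounted reads (66.5% and 69.6% of reads in animals 1 and 2) entered neither library sizes nor tests. CPM and shares were computed over reads counted to microRNA genes.

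Genes with at least 10 reads summed over both libraries were compared by a two-sided exact conditional binomial test given TMM effective library sizes (edgeR 4.0.16, R 4.3.3), adjusted by Benjamini-Hochberg and called at 0.05. A group of 2 libraries leaves no contrast for edgeR's quasi-likelihood test. Log2 ratios add 0.5 to each count. Python 3.11.15 with scipy 1.17.1 was used. The test was tried on simulated data with counting noise only, which is what it assumes. That trial could not show how it behaves with spread between animals. Alternatives were DESeq2 1.42.0 size factors, library totals, the unstranded column, no filter, other denominators, single libraries and reads per base.

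The members, lists and tests were chosen with earlier results of these data known. Named beside the members are the 2 nearest genes of each and, from each list, at most 2 genes by mean CPM; Mir33 and Mir29b-1, and the marker genes named, were chosen after their values were seen. The p-values cover counting noise, not the spread between animals.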

Additional observations from a re-analysis of the deposited data

How the results depend on the processing

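The log2 ratios of the members kept their sign and stayed past the threshold under all 4 alternatives of scaling, strand column and filter: 0.78 to 1.04 for Mir148a, 1.03 to 1.29 for Mir148b and 1.503 to 1.76 for Mir152. The lowest values came with DESeq2 size factors and the highest with library totals. Library totals moved the median of all tested genes from 0.04 to 0.25 on the log2 scale, and 67.5% of calls were then higher in animal 1, against 52.2% with TMM and 46.7% with DESeq2 size factors, whose median was -0.006. With all reads as denominator, uncounted rows included, the family share was 0.00684% and the means were 26.2 for Mir148a, 32.8 for Mir148b and 9.48 for Mir152 per 1000000 reads. Without the 10 most abundant genes the share was 0.0399% and the means were 154 CPM for Mir148a, 191 for Mir148b and 54.4 for Mir152. Both follow from the size of the denominator. Per base of the gene, the mean ratio of Mir152 to Mir148a was 0.448 against 0.330, and that to Mir148b 0.357 against 0.268, because its gene is shorter. Leaving out an animal gave a family share of 0.0124 to 0.0296%. The difference between the libraries cannot be tested without either. No paired analysis was possible because there is only one group. Mir152 had only 34 reads in animal 2, which limits the precision of its ratio.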

Other observations

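The letters CAGUGCA occur in 17 of the 1679 mature sequences searched, or 1.01%, on their own strand, the 3 seeds of the family included. At bases 1 to 7 they stand in 7 strands. Of the genes of these strands, Mir130a, Mir130b and Mir301 had reads, and Mir130c, Mir6341, Mir6389 and Mir721 had none in either library. Levels here are of genes, with both arms summed. Further inside, they start at base 5 of miR-139-5p, whose gene stood at 71747 and 77940 CPM, far above the family. They start at base 4 of miR-449c-5p and at base 8 of miR-141-5p, whose genes had means of 0.586 and 0.455 CPM. They start at base 12 of the strands of Mir17 (2469 and 3346 CPM), Mir106b (883 and 345 CPM), Mir106a (8.41 and 12.7 CPM) and Mir33. Among these, Mir106b was higher in animal 1 (log2 ratio 1.15), while Mir139, Mir17, Mir33 and Mir106a had negative log2 ratios of -0.32, -0.64, -0.65 and -0.80. A match is a description of letters and not of a target or a cause.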
